A study of Mus musculus with 8 samples.

Results

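Cytosolic ribosomal protein genes encode the proteins of the small (Rps) and large (Rpl) subunits of the ribosome that translates mRNA in the cytosol. They were taken by symbol, as Rps or Rpl followed by a number (with or without a closing letter), Rplp0 to Rplp2 and Rpsa, without names marked as pseudogenes. The rule found 83 of the 31053 genes in the deposited feature list, 32 of the small and 51 of the large subunit. The annotation (GENCODE M21, GRCm38) places the 83 genes on 19 chromosomes, 4 of them on X.

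Single cells came from the parietal bone, a flat bone of the skull roof, of mice at postnatal day 4 to 5, all labelled with the strain B6.129(FVB)-Col1a2tm1Mcbr/J. The 4 wild-type (WT) libraries S1, S2, S5 and S6 were compared with 4 libraries (Het; S3, S4, S7 and S8) from mice heterozygous for G610C. This mutation replaces a glycine by a cysteine in the triple helix of the α2 chain of type I procollagen and models osteogenesis imperfecta in every cell that makes the chain, from the endogenous gene. Each library pooled cells of several pups of 1 genotype, released by collagenase. Libraries S1 to S4 were made with version 3 and S5 to S8 with version 3.1 of the 3′ kit, so each kit version held 2 libraries per genotype, and kit version and mapping software changed together.

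Osteoblasts (OBs) are the cells that secrete type I collagen and build bone. They were cells with at least 10 UMIs (unique molecular identifiers, 1 per captured mRNA molecule) of Col1a1 and 2 UMIs in 2 of Runx2, Sp7 and Ibsp. Their stage was set by the Col1a1 share of all UMIs, as early (eOB, under 0.75%), differentiating (dOB) or mature (mOB, over 3.5%). Of 68625 barcodes, 46420 had at least 500 genes and under 10% mitochondrial UMIs, and 2671 of these were OBs, with 379 eOBs, 1217 dOBs and 1075 mOBs. The mOBs per library numbered between 42 (S8) and 299 (S5), and their median depth lay between 12348 and 21116 UMIs per cell. The eOBs were fewer, with 81, 23, 22 and 23 cells in S1 to S4 and 95, 50, 58 and 27 in S5 to S8. All 9 OB markers were detected in each stage of every library. Markers of other cells were present as well, and in mOBs of kit version 3 the summed haematopoietic markers reached 488 to 671 CPM (counts scaled to a fixed library total) in WT against 32.0 to 164 in Het. In mOBs of kit version 3.1 the 10 chondrocyte markers summed to 1176 to 1211 CPM in WT and 1615 to 3226 CPM in Het, and the smooth muscle markers to 429 to 434 and 755 to 762 CPM. The OB markers of kit version 3 summed to 71260 to 81954 CPM in WT and 43402 to 44956 CPM in Het mOBs, while its chondrocyte markers overlapped between genotypes (31.8 to 819 CPM). In mOBs of kit version 3 the smooth muscle (60.6 to 61.5 CPM in WT, 101 to 201 CPM in Het), endothelial (10.8 to 11.6 and 23.1 to 32.0 CPM) and fibroblast markers (13.8 to 14.5 and 24.2 to 109.9 CPM) did not overlap between genotypes either. In those of kit version 3.1 the same held for the OB markers (48033 to 50378 CPM in WT, 35133 to 46944 CPM in Het) and the haematopoietic markers (9.57 to 17.8 and 1.5 to 8.32 CPM). The part of these marker differences in the results below was not tested. Libraries shared few barcodes, at most 24 for any pair.

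Ribosomal proteins are needed in near-equal numbers and their mRNAs are among the most abundant of the cell. Most of these mRNAs start with a 5′ terminal oligopyrimidine (TOP) tract, a C followed by a run of pyrimidines, through which mTORC1 and the RNA-binding protein LARP1 set their translation and stability together. OBs have a high demand for ribosomes, since collagen makes up much of the protein they secrete. Ribosomal protein genes also have many processed pseudogenes, so that reads can match several places in the genome, and a short change in the 3′ end can alter how many are counted.

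RefSeq promoter windows (GRCm38.p6; 250 bases before to 50 after the annotated start) existed for 63 of the 83 members, and were searched on the coding strand for a C followed by at least 5 bases that are each C or T, with the C within 10 bases of the annotated start. Such a run was found in 34 of the 63 (54.0%), in 14 of 24 members of the small and 20 of 39 of the large subunit. The share over all 27025 genes with a window was 21.1%. The 30 bases around the start, 10 before and 20 from it, are shown for members on which the results below turn, with the run in capitals, and first for those that have it.
Rpl38 (chr11:114668570-114668599, plus strand): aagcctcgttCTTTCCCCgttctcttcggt
Rpl22l1 (chr3:28805498-28805527, plus strand): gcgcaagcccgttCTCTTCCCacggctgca
Rpl39l (chr16:10170218-10170247, plus strand): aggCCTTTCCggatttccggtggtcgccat
Rpl13a (chr7:45128726-45128755, minus strand): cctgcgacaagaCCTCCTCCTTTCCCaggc
Rpl35 (chr2:39005112-39005141, minus strand): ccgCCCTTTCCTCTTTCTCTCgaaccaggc
Rpl39 (chrX:37085203-37085232, minus strand): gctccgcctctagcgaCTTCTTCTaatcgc
Rps6 (chr4:86857348-86857377, minus strand): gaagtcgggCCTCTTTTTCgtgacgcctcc
Rpl41 (chr10:128549149-128549178, minus strand): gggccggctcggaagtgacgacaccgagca
Rpl10 (chrX:74270806-74270835, plus strand): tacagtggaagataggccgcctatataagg
Rpl27 (chr11:101442235-101442264, plus strand): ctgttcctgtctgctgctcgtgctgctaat
Rpl7l1 (chr17:46782637-46782666, minus strand): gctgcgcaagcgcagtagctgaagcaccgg
The last 4 hold no such run in this window. Members with and without a run were found both among those called and among those not called between OB stages (below). Rplp0 and Rpl5 were called and hold none, and Rps9 and Rps18 were not called and hold one. A match is a description of these letters, and no match says only that they are not at the annotated start.

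In mOBs the members together took between 9.82% and 24.8% of all UMIs. No member dominated. The 5 largest held 13.6% of the ribosomal protein UMIs and the 20 largest 41.1%, as the mean of 8 libraries. Rpl41, the shortest ribosomal protein, held 2.98%, and Rplp1, an acidic stalk protein, 2.85%. Rplp0, the base of the same stalk, had 4741, 5154, 6252 and 6186 CPM in S1 to S4 and 2013, 1908, 1496 and 2003 CPM in S5 to S8. All 4 libraries of kit version 3 lay above all 4 of kit version 3.1. Counting at the 3′ end gives 1 UMI per molecule, so these levels do not depend on gene length, though they depend on how well each 3′ end is captured.

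Several ribosomal protein genes have a second, related gene of narrower use, and these paralogs were far below their partners or absent, with 1 exception. Rpl22l1, the paralog of Rpl22, had 1350, 1284, 1533 and 1448 CPM in mOBs of S1 to S4 and 769, 772, 535 and 689 CPM in S5 to S8. Rpl22 had 1003, 1074, 1451 and 1249 CPM and 601, 573, 519 and 592 CPM in the same libraries. Rpl22l1 was thus above Rpl22 in all 8 libraries of mOBs. In contrast, Rpl39l reached 20.1 to 114 CPM in mOBs against 2208 to 4741 CPM for Rpl39. The level of Rps27l, a paralog known as a p53 target, was 160 to 467 CPM against 612 to 2212 CPM for Rps27. Rpl7l1, which works in ribosome assembly, had 44.3 to 69.1 CPM against 780 to 2991 CPM for Rpl7. Rpl3l, the form known from striated muscle, had 4 UMIs in all mOBs together, of which S4 held 2, and Rpl10l, known from testis, had 0 UMIs in any OB and 1 UMI in all other cells. These 2 were not tested in OBs, where 81 of the 83 members passed the filter on low counts.

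**Figure D1:**
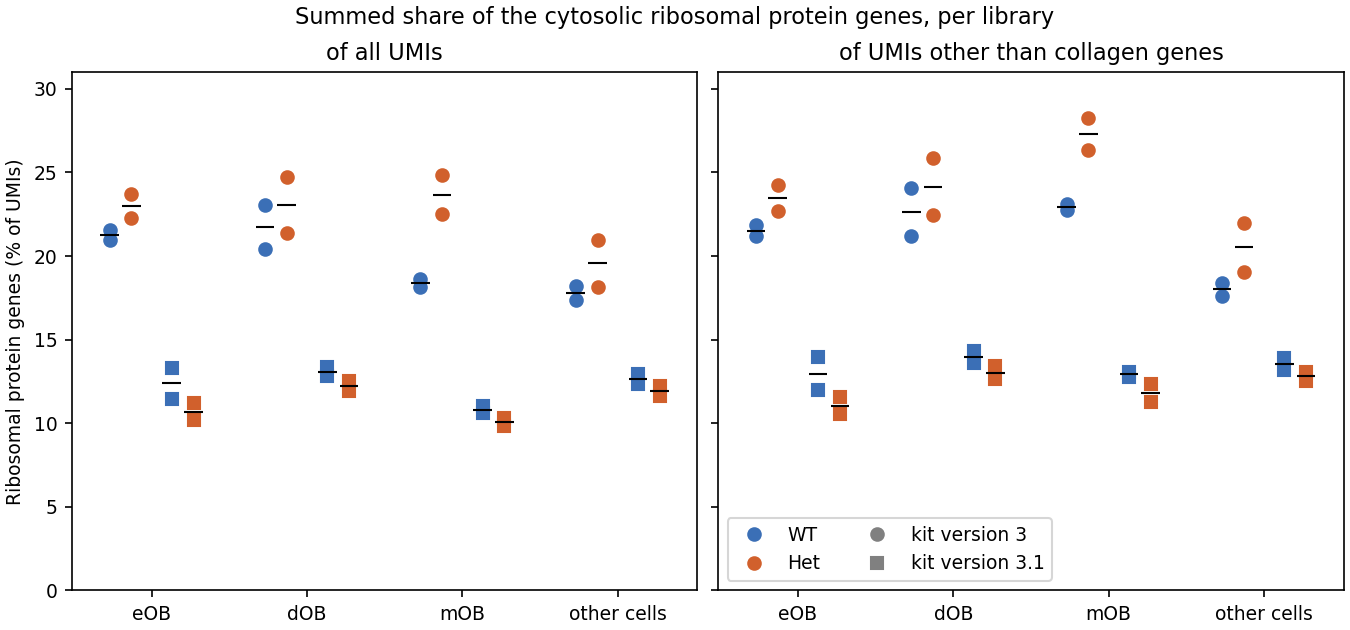
Percent of UMIs from the 83 genes in each library (points) and mean of 2 libraries (line), by OB stage and in all other cells, over all UMIs (left) and over UMIs other than collagen genes (right). In mOBs both Het libraries lie above both WT libraries in kit version 3 and below them in kit version 3.1, on both scales.

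Whether the G610C mutation changed the ribosomal protein genes was first asked of their summed share. In mOBs of kit version 3 they took 18.2% (S1) and 18.6% (S2) of UMIs in WT and 24.8% (S3) and 22.5% (S4) in Het. Those of kit version 3.1 had 11.0% (S5) and 10.6% (S6) in WT and 9.82% (S7) and 10.3% (S8) in Het. Het thus lay above WT by 5.29 percentage points in kit version 3 and below WT (-0.75 points) in kit version 3.1, with no overlap in either. Over all libraries the share was 14.6% ± 4.38 (SD, n = 4) in WT and 16.9% ± 7.92 in Het, a difference of 2.27 points. Leaving out any 1 library moved it by over 1.5 times, from -0.381 points without S3 to 4.62 points without S7. The difference of 2.27 points is smaller than the spread within either genotype, which is mostly the step between kit versions. Collagen genes took 12.1% and 14.4% of the mOB UMIs in S3 and S4 and 18.3% to 21.4% in S1 and S2. With collagen UMIs taken out of the total, Het remained above WT in kit version 3 (27.3% against 22.9%) and below it in kit version 3.1 (11.8% against 12.9%).

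The earlier stages and all other cells were read in the same way. The share in eOBs was 21.5% and 20.9% in WT and 23.7% and 22.3% in Het of kit version 3, and 13.3% and 11.5% in WT and 11.2% and 10.2% in Het of kit version 3.1. As in mOBs, Het lay above WT in the former and below it in the latter. In eOBs of kit version 3 the genotypes did not overlap for chondrocyte markers (31.1 to 1273 CPM in WT, 1984 to 3750.2 CPM in Het), haematopoietic markers (533 to 1013 and 24.5 to 236 CPM), fibroblast markers (0 to 29.3 and 93.1 to 112 CPM) or OB markers (29064 to 44018 and 13656 to 28800 CPM). In those of kit version 3.1 they did not overlap for chondrocyte (21869 to 31862 and 12516 to 12832 CPM), smooth muscle (696 to 853 and 1312 to 2248 CPM) or OB markers (17143 to 19016 and 12684 to 15633 CPM). The part of these differences was not tested. The dOBs of kit version 3 overlapped between genotypes, with 20.4% and 23.1% in WT and 24.8% and 21.4% in Het, while those of kit version 3.1 had 13.3% and 12.8% in WT and 12.5% and 11.9% in Het, without overlap. In dOBs of kit version 3.1 the haematopoietic (51.1 to 104 CPM in WT, 10.9 to 38.5 CPM in Het), erythroid (113 to 1164 and 28.0 to 29.7 CPM), smooth muscle (870 to 1037 and 1043 to 1318 CPM) and OB markers (17921 to 18237 and 19052 to 20005 CPM) did not overlap either, and their part was not tested. The same held in dOBs of kit version 3 for chondrocyte (91.9 to 221 CPM in WT, 472 to 1274 CPM in Het) and OB markers (39192 to 45704 and 17059 to 22973 CPM). In all other cells the shares were 17.4% and 18.2% (WT) against 20.9% and 18.2% (Het) in kit version 3, and 13.0% and 12.3% (WT) against 12.2% and 11.6% (Het) in kit version 3.1. The other cells of S1 and S2 held 48060 to 163194 CPM of erythroid markers against 7754 to 14835 CPM in S3 and S4, and their part in this comparison was not tested. In kit version 3.1 the genotypes did not overlap for erythroid (4728 to 4923 CPM in WT, 441 to 999.6 CPM in Het), haematopoietic (792 to 973 and 353 to 551 CPM) or chondrocyte markers (45018 to 45569 and 52430 to 60954.5 CPM). Fibroblast and smooth muscle markers did not overlap there either, and the part of all these was not tested. In such sums over mixed cells, fewer cells of a type and less RNA per cell cannot be told apart.

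**Figure D2:**
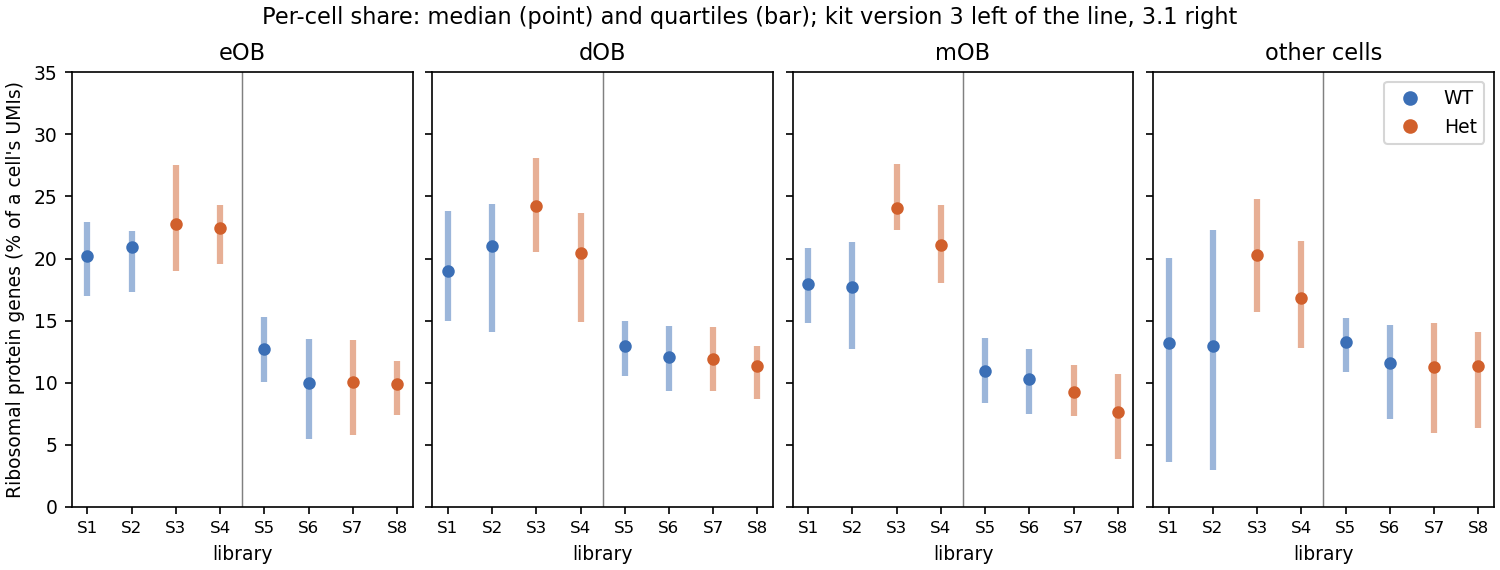
Percent of each cell's UMIs from the 83 genes, as the median (point) and quartiles (bar) over the cells of each library, by OB stage and in all other cells. In mOBs the medians of S3 and S4 lie above those of S1 and S2, and those of S7 and S8 below those of S5 and S6.

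The same order held per cell. The median mOB gave 17.9% and 17.7% of its UMIs to these genes in S1 and S2, and 24.1% and 21.1% in S3 and S4. In kit version 3.1 the medians were 11.0% and 10.3% in WT and 9.27% and 7.66% in Het. The lower quartile of S3 (22.3%) was above the upper quartile of S1 (20.9%) and S2 (21.3%). All other cells of S1 and S2 were widely spread, with quartiles of 3.65% and 20.1% in S1 and 2.96% and 22.3% in S2.

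Each gene was then tested in a fit over all genes (edgeR quasi-likelihood test with kit version as a term, libraries as replicates, Benjamini-Hochberg adjustment over all genes). In mOBs none of the 81 members passed an adjusted p of 0.05, where 52 of 10033 genes did (0.518%). At an unadjusted p under 0.05 the count was 0 as well, against 11% of all genes, and DESeq2 called 0. The log2 fold changes were small and mostly positive, from -0.12 (Rpl37a) to 0.27 (Rpl13a), with 72 of 81 above 0 and a median of 0.09, against a median of 0.01 over all genes. The median was 0.0223 without S1, 0.0166 without S3 and 0.164 without S7. The median turned to -0.025 with every cell thinned to 2000 UMIs. Among the highest were Rpl13a, a protein also known for control of inflammatory mRNAs, and Rpl4 (0.23). The lowest were Rpl37a, Rpl38 (-0.08) and Rps29 (-0.08). With 1 library left out Rpl13a ranged from 0.148 to 0.479 and Rps29 from -0.175 to -0.017. Small and large subunits did not part, with medians of 0.09 and 0.09.

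The pooled change hid opposite directions in the kit versions. Rpl13a had 213 and 221 CPM in S1 and S2 and 375 and 311 CPM in S3 and S4. In kit version 3.1 it had 113 and 115 CPM in WT and 83.2 and 129 CPM in Het. Both Het libraries were above both WT libraries in kit version 3, while the genotypes overlapped in kit version 3.1. In a fit with 4 group means, contrasted within kit version 3, its change was 0.66 ± 0.18 (log2, SE; edgeR adjusted p = 0.0762), and within kit version 3.1 it was -0.16 ± 0.19 (edgeR adjusted p = 0.95). Within kit version 3, 2 of 81 members were called (2 higher in Het, 0 lower), against 3.46% of all genes called in that contrast. At an unadjusted p under 0.05 the count was 38 of 81, against 16% of all genes, and DESeq2 called 5. The 2 calls were lost when any 1 of the libraries S1 to S6 was left out (0 called), while leaving out S7 or S8 gave 9. Within kit version 3.1 no member was called (0.0287% of all genes; 3 at an unadjusted p under 0.05 against 7.07% of all genes, DESeq2 0).

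**Figure D3:**
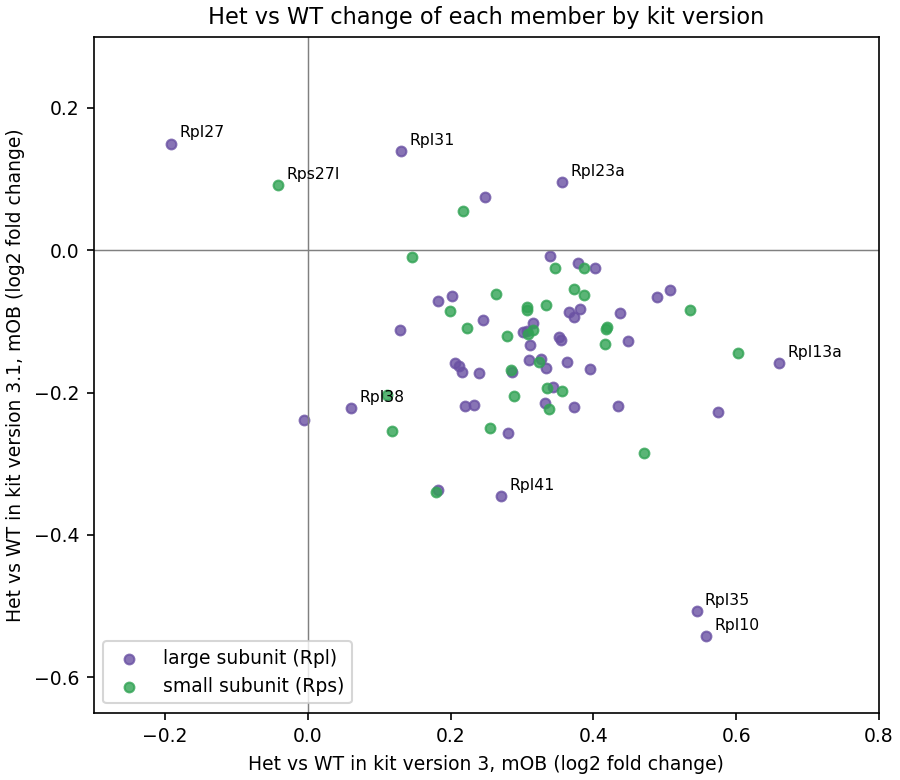
Log2 fold change of Het against WT in mOBs for the 81 tested members, within kit version 3 (horizontal) and kit version 3.1 (vertical), coloured by subunit. Most points fall in the lower right, above 0 in kit version 3 and below 0 in kit version 3.1, with Rpl10 and Rpl35 farthest down.

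In kit version 3, 78 of 81 members had a log2 fold change above 0 (median 0.32), and in kit version 3.1 only 6 did (median -0.13). By TMM-scaled CPM both Het libraries were above both WT libraries for 68 members in kit version 3, where 24.7% of all genes showed this. Both were below WT for 37 members in kit version 3.1, against 18.6% of all genes. The 2 patterns met in 31 of 81 members, against 4.05% of all genes. The difference between the kit versions, tested as such, called 0 members (0.0861% of all genes), with an unadjusted p under 0.05 for 42 of 81 (10.6% of all genes) and 2 called by DESeq2. The lowest adjusted p among the members was 0.139 (edgeR). Without S8, the library with the fewest mOBs, 5 members were called. The members share cells and libraries, so their common direction is 1 observation of 8 libraries and not 81.

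The same edgeR test was run in the other stages and cell classes. In dOBs 0 of 81 were called (0.00981% of all genes), the count at an unadjusted p under 0.05 was 0 (7.37% of all genes), and the median was -0.01. In eOBs 0 were called (0% of all genes), 0 at an unadjusted p under 0.05 (3.87%), with a median of -0.10. DESeq2 called none of the members in either stage. Within kit version the medians again lay above 0 in version 3 and below 0 in version 3.1. In dOBs the median was 0.12 in kit version 3 (0 called by edgeR, where 0.378% of all genes were; unadjusted p under 0.05 in 0, 13.4%) and -0.12 in kit version 3.1 (0 called, 0%; 0 at an unadjusted p under 0.05, 5.7%). In eOBs it was 0.07 (0 called, 1.11%; 1 at an unadjusted p under 0.05, 12.8%) and -0.28 (0 called, 0%; 7 at an unadjusted p under 0.05, 5.73%). DESeq2 called 0 members in these 4 contrasts.

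All cells other than OBs had 0 of 82 members called by edgeR (0% of all genes were), with an unadjusted p under 0.05 for 2 (25.6%), and DESeq2 called 1. Chondrocyte-like cells, a cartilage cell class by markers, had 0 of 81 called (0.0347%), 3 at an unadjusted p under 0.05 (6.9%) and 0 by DESeq2. Haematopoietic-like cells by the first marker rule left S7 and S8 with under 10 cells, and in the other 6 libraries 0 of 80 were called (7.41%), 4 at an unadjusted p under 0.05 (19.2%) and 0 by DESeq2. Without S4 this count was 2, and without S2 or S6 it was 1. A second rule, set after the data were seen, kept all 8 libraries. It gave 0 of 82 called (0.026%), but 31 at an unadjusted p under 0.05 (15.7%), 4 called by DESeq2 and a median of -0.23. No member was called for a difference of the genotype change between mOBs and eOBs (0%; 3 at an unadjusted p under 0.05, 5.27%; DESeq2 0). Between mOBs and dOBs the counts were 0 called (0%), 0 at an unadjusted p under 0.05 (3.04%) and 0 by DESeq2, and between mOBs and all other cells they were 0 (0%), 0 (7.26%) and 0. A p that misses the threshold does not show that the changes are equal.

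In all other cells the contrast within kit version 3 called 3 of 82 members (47.4% of all genes). Rpl39l rose by 1.36 ± 0.11 (log2, SE; edgeR adjusted p = 4.46e-04), from 19.8 and 20.5 CPM in S1 and S2 to 53.4 and 49.7 CPM in S3 and S4. In chondrocyte-like cells alone the order was the opposite, with 91.0 and 104 CPM of Rpl39l in S1 and S2 and 67.9 and 61.2 CPM in S3 and S4. The other cells of kit version 3 held 16789 to 27262 CPM of haematopoietic markers in WT and 885 to 2133 CPM in Het, and 2364 to 2906 against 12273 to 16652 CPM of chondrocyte markers, whose part was not tested. Rpl27 decreased by 0.72 (SE 0.16; edgeR adjusted p = 0.0101), from 768 and 615 CPM to 433 and 403 CPM. In chondrocyte-like cells alone Rpl27 was high in S1 only, with 747 CPM against 490, 478 and 480 CPM in S2, S3 and S4. Rpl3l decreased by 4.25 (SE 0.45; edgeR adjusted p = 7.24e-04), from 117 and 77 UMIs to 2 and 9 UMIs, in sums of 3237 to 7181 cells. The Het sums thus held almost no Rpl3l. Markers of striated muscle were not examined, so the part of cell makeup in this call was not tested. Rpl39l, Rpl27 and Rpl3l were also called in the difference between kit versions (22.8% of all genes), with the same limit for Rpl3l. In kit version 3.1 the Rpl3l UMIs numbered 27 and 20 in WT and 18 and 10 in Het, also lower in both Het libraries but by less. Without S1 the kit version 3 contrast called 23 members, and the difference between kit versions called 6 without S1 and 1 without S6 or S7.

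OB stages were compared next, within libraries (edgeR with library as a term). From eOB to mOB, 71 of the 81 members rose and 0 fell, where 17.7% of all genes rose and 18.1% fell. All 81 log2 fold changes were above 0, from 0.02 to 0.75, with a median of 0.33 against -0.03 over all genes. These values are on the TMM scale (trimmed mean of M values), which sets each sum against the bulk of its genes. As a percent of all UMIs the members fell instead, from a mean of 16.8% in eOBs to 15.7% in mOBs, higher in mOBs in only 3 of 8 libraries. As a percent of UMIs other than collagen genes they rose from 17.2% to 18.7%, in 6 of 8 libraries. The direction thus rests on the scale, and the rise is one relative to genes other than collagen. Smooth muscle markers moved along with stage in kit version 3, from 505 to 853 CPM in eOBs to 60.6 to 201 CPM in mOBs, and endothelial markers in kit version 3.1, from 33.4 to 1456 CPM to 3.01 to 18.2 CPM. Chondrocyte markers of kit version 3.1 fell as well, from 12516 to 31862 CPM in eOBs to 1176 to 3226 CPM in mOBs. The part of all these markers in the stage change was not tested.

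**Figure D4:**
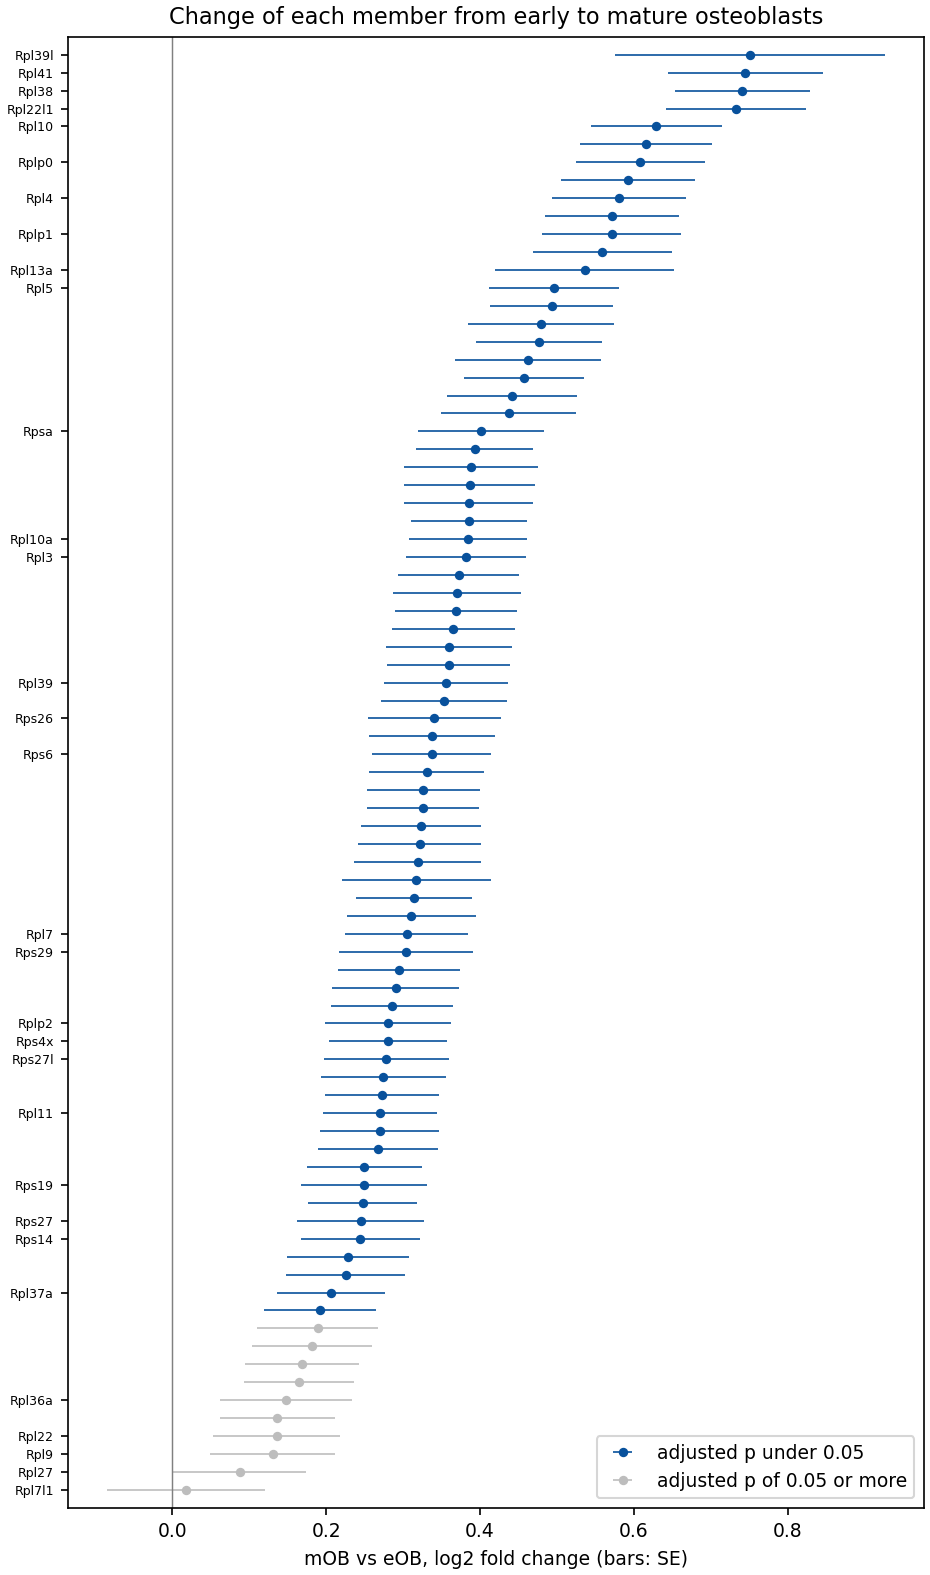
Log2 fold change from eOB to mOB (point) with its SE (bar) for each of the 81 tested members, sorted, on the TMM scale, with labels on the members that the text follows. All lie above 0, the 71 called ones in blue, with Rpl39l, Rpl41, Rpl38 and Rpl22l1 at the top and Rpl7l1 and Rpl27 at the bottom.

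Among members with a mean of at least 20 CPM, Rpl39l (0.75 ± 0.18, SE; edgeR adjusted p = 0.00192), Rpl41 (0.75 ± 0.10; edgeR adjusted p = 6.61e-06) and Rpl38 (0.74 ± 0.09; edgeR adjusted p = 1.14e-06) rose most. Rpl38, known for its part in the translation of homeobox mRNAs and in the patterning of the axial skeleton, had 1820, 1594, 1817 and 1672 CPM in eOBs of S1 to S4 and 3460, 2992, 3678 and 3061 CPM in mOBs, on 1 TMM scale set over all stages. In S5 to S8 it went from 1213, 960.0, 862 and 692 CPM to 1441, 1447, 1234 and 1243 CPM on that scale. It was higher in mOBs of all 8 libraries, and the stages did not overlap within either kit version. On the same scale Rpl41 went from 4221, 3643, 5106 and 4780 CPM in eOBs to 8688, 7588, 10022 and 9618 CPM in mOBs of S1 to S4. Its levels in S5 to S8 were 3157, 2508, 2227 and 1707 CPM in eOBs and 3607, 3652, 2852 and 2863 CPM in mOBs. Rpl41 was higher in mOBs of each library, though the stages overlapped in kit version 3.1. Rpl39l, the rarest of the trio, had 33.7, 61.0, 55.5 and 111 CPM in eOBs and 83.3, 77.8, 80.1 and 139.7 CPM in mOBs of S1 to S4. In S5 to S8 it went from 31.3, 25.9, 20.1 and 17.5 CPM to 44.1, 44.0, 50.5 and 24.3 CPM. Each library was higher in mOBs, while the stages overlapped in both kit versions. Levels given for a single stage elsewhere were scaled within that stage.

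Of the paralogs, Rpl22l1 rose by 0.73 ± 0.09 (edgeR adjusted p = 2.12e-06), while Rpl22 was at 0.14 ± 0.08 (edgeR adjusted p = 0.215). In eOBs Rpl22 stood above Rpl22l1 in all 8 libraries except S8, where the levels were 566 CPM for Rpl22 and 656 CPM for Rpl22l1. In mOBs Rpl22l1 stood above Rpl22 in all 8, so the order was reversed in each library but S8. Rpl39l at 0.75 stood beside Rpl39 at 0.36 ± 0.08 (edgeR adjusted p = 0.00146), and the difference within pairs was not tested. Rpl7l1 showed the smallest change of all (0.02; edgeR adjusted p = 0.934), with Rpl7 at 0.30. Rpl27 (0.09; edgeR adjusted p = 0.472) and Rpl9 (0.13; edgeR adjusted p = 0.227) followed. The 10 members not called were Rpl7l1, Rpl27, Rpl9, Rpl22, Rpl13, Rpl36a, Rps3, Rps9, Rpl36 and Rps18. Of genes mutated in Diamond-Blackfan anaemia, in which red cell formation fails, Rps19 (0.25), Rps26 (0.34), Rpl5 (0.50) and Rpl11 (0.27) were called, while Rpl27 and Rpl9, in which mutations are known as well, were not. Rps14 was at 0.24, Rps6, the target of S6 kinase, at 0.34, Rpl10a at 0.38, Rpsa at 0.40, Rplp0 at 0.61, Rplp1 at 0.57, Rplp2 at 0.28, Rpl3 at 0.38, Rps4x at 0.28, Rps27 at 0.25 and Rps27l at 0.28, each called, whereas Rpl36a was at 0.15.

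The steps were tested on the TMM scale. From eOB to dOB 20 members rose and 0 fell (7.2% of all genes rose; median 0.18), and from dOB to mOB 19 rose and 0 fell (13% of all genes rose; median 0.16). In both steps 7 were called, among them Rpl41, Rpl38, Rpl22l1 and Rpl5, and 39 members called from eOB to mOB were called in neither. The matching shares over all genes were not computed, so these 2 counts are a description. As a percent of UMIs other than collagen genes the mean difference was 1.19 ± 1.25 points (SD, n = 8) from eOB to dOB, above 0 in 6 of 8 libraries, and 0.287 ± 2.15 points from dOB to mOB, above 0 in 3 of 8. Of all UMIs the second step was -1.79 ± 1.72 points, above 0 in 2 of 8. The step counts leaned on single libraries. From eOB to dOB they were 3 or 4 without S2, S3, S6, S7 or S8 and 9 without S5, and from dOB to mOB they were 44 without S7, 31 without S5, 12 without S1 and 10 without S4. From eOB to mOB every count with 1 library left out stayed within 1.5 times the count of 71, while thinning every cell to 2000 UMIs left 27.

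The stage change was read within each kit version. In version 3, 73 members rose from eOB to mOB (13.9% of all genes; median 0.48) and in kit version 3.1 30 did (13.5% of all genes; median 0.24). The difference was called for 3 of 81 members, Rpl41 (-0.59), Rpl35 (-0.56) and Rps21 (-0.55), each with a smaller rise in kit version 3.1, where 5.51% of all genes were called, and 24 members had an unadjusted p under 0.05 (17.8% of all genes). The kit version 3.1 count was 12 without S6 and 11 without S8. That of the difference was 10 without S8, 1 without S3 or S6 and 0 without S4, S5 or S7. Chondrocyte markers moved along with stage in kit version 3.1, from 12516 to 31862 CPM in eOBs to 1176 to 3226 CPM in mOBs. In kit version 3 they went from 31.1 to 3750 CPM in eOBs to 31.8 to 819 CPM in mOBs. Their part in the kit difference was not tested.

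Within OBs of 1 library the relation of each cell's Col1a1 share to its ribosomal protein share (percent of UMIs other than collagen genes) was weak. Spearman's rho across cells was 0.10, 0.09, 0.26 and 0.26 in S1 to S4 and -0.08, -0.03, -0.06 and -0.15 in S5 to S8, over 133 to 821 OBs. The sign rested on the scale, since with the share taken of all UMIs rho was -0.21, -0.26, 0.03 and -0.04 in S1 to S4 and -0.22, -0.18, -0.15 and -0.25 in S5 to S8. The relation to the cell's depth was stronger, from 0.12 to 0.58. Cells of a library share its depth and free RNA, and these values are descriptions.

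The ribosomal protein genes of OBs were compared with those of all other cells within libraries. Few calls do not show likeness here, since this test recovered 1.06% of simulated log2 changes of 0.5. Of 82 members tested, 2 were called higher in OBs and 1 lower, where 37.5% of all genes were called. Rpl39l was higher by 0.83 ± 0.22 (edgeR adjusted p = 0.0147) and Rpl22l1 by 0.59 ± 0.17 (edgeR adjusted p = 0.0183). The 1 counted as lower was Rpl3l, which had 4 UMIs in mOBs, 1 in dOBs and 0 in eOBs and passed the filter on low counts only through the other cells, so that its call is no result. DESeq2 called 9. Without S4 the count was 1 and without S1 it was 2. The median over the members was 0.16, against -0.08 over all genes, with 75 of 82 above 0. As a percent of UMIs the OBs were above all other cells in the 4 libraries of kit version 3 (19.9% to 24.7% against 17.4% to 20.9%) and below them in the 4 of kit version 3.1 (11.2% to 12.5% against 11.6% to 13.0%). They were above chondrocyte-like cells in 1 of 8.

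The largest step in the members was the one between kit versions. In mOBs all 81 were called lower in kit version 3.1 (27.3% of all genes), by a median log2 fold change of -1.44, from -2.13 (Rpl23a) to -0.40 (Rpl7l1), and in all other cells 75 of 82 were (29.2% of all genes; median -0.85). Rpl39 dropped by 0.62 in mOBs, so its part of the ribosomal protein UMIs rose from 1.65% to 2.89%. Rps14 (-1.98), Rps25 (-2.05) and Rpl10 (-2.09) were among those that fell most, along with Rpl23a. The 4 related genes outside the rule fell too. Fau, which encodes Rps30 fused to a ubiquitin-like protein, had 2456 to 3535 CPM in S1 to S4 and 1106 to 1396 CPM in S5 to S8. Kit version, mapping software and anything else that set S1 to S4 apart from S5 to S8 cannot be told apart here. The other cells also differed in makeup, with 2364 to 16652 CPM of chondrocyte markers in kit version 3 and 45018 to 60955 CPM in kit version 3.1, whose part was not tested.

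**Figure D5:**
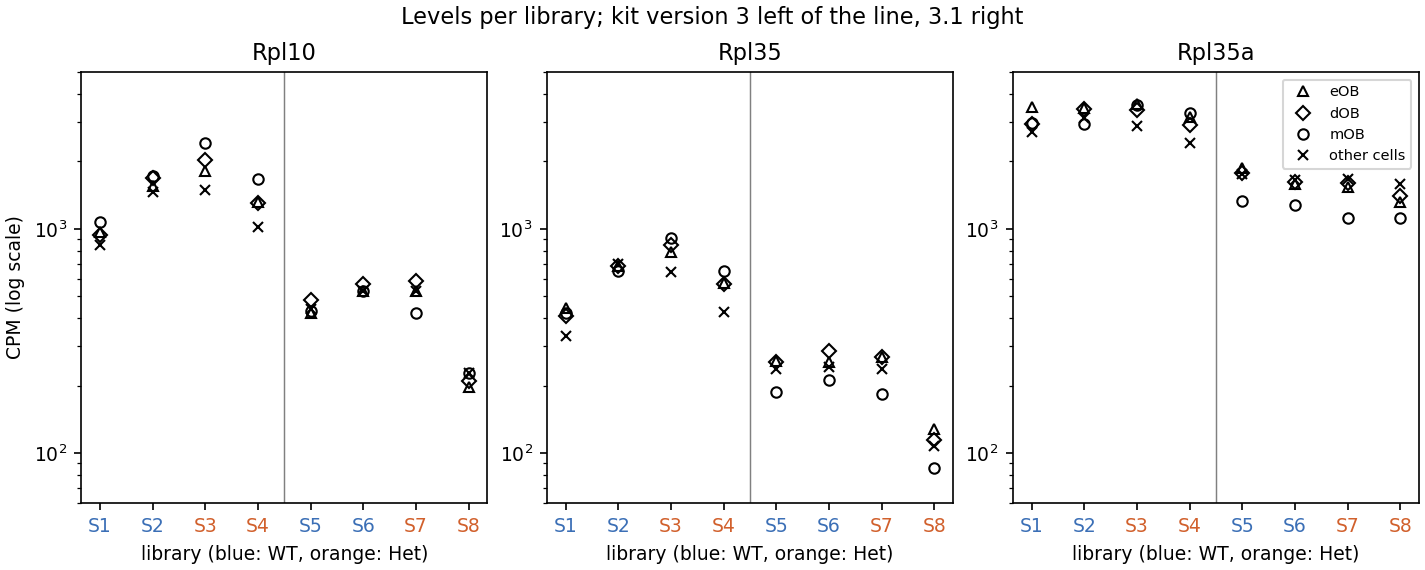
CPM (log axis, 1 range for all panels) of Rpl10, Rpl35 and, for contrast, Rpl35a in each library, with a symbol for each OB stage and for all other cells. Rpl10 and Rpl35 are low in S1 and S8 in every class, while Rpl35a in mOBs has like levels in the 2 libraries of each genotype and kit version.

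Rpl10 and Rpl35 varied widely between libraries of the same genotype and kit version. Rpl10, a protein of the peptidyl transferase core, had 1076, 1716, 2428 and 1674 CPM in mOBs of S1 to S4 and 429, 529, 420 and 228 CPM in S5 to S8. Rpl35, which lies at the exit tunnel, had 422, 649, 909 and 650 CPM and 187, 212, 183 and 86.0 CPM. Rpl35 was named after its values were seen. The spread within genotype and kit version (SD of log2 CPM) was 0.48 for Rpl35, the largest of the 81, against a median of 0.12. Rpl39l, Rpl10 and Rpl27 (0.28) followed. Rpl27 stood out in S1, with 737 CPM against 465, 532 and 520 CPM in mOBs of S2 to S4. Rpl35a, the member with the smallest such spread (0.0455), had 2965, 2933, 3567 and 3289 CPM in S1 to S4 and 1328, 1282, 1118 and 1124 CPM in S5 to S8. Its Het libraries lay above WT in kit version 3 and below WT in kit version 3.1, without overlap.

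The same libraries were low in every class. The ratio of S8 to S7 was 0.54 for Rpl10 and 0.47 for Rpl35 in mOBs, where the median member had 1.14. In eOBs these ratios were 0.37 and 0.48 against 0.92, in dOBs 0.36 and 0.43 against 0.92 and in all other cells 0.43 and 0.45, where the median member was level. The ratio of S1 to S2 was 0.63 and 0.65 in mOBs against 0.95, and 0.58 and 0.48 in all other cells against 0.76. Between S4 and S3 both genes were again among the 3 lowest members in each of the 4 classes. Between S6 and S5 they were among the 5 highest in each of them, with 1.24 for Rpl10 and 1.13 for Rpl35 in mOBs against 0.96. S8 is Het and S1 is WT. These 2 genes also had the largest kit difference of the genotype change among the members in mOBs. Rpl10 changed by 0.56 in kit version 3 and -0.54 in kit version 3.1 (difference 1.10 ± 0.40; edgeR adjusted p = 0.338). The difference for Rpl35 was 1.05 ± 0.41 (edgeR adjusted p = 0.38). The cause of this pattern was not tested.

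Other gene lists of the same pathway were read from the same fits, in mOBs. The list of translation factors and other mRNAs known to start with a TOP tract had 16 genes, of which 3 of the 10 with a promoter window held the run searched above. In Het against WT 0 were called by edgeR (0.518% of all genes), 1 had an unadjusted p under 0.05 (11%) and 15 were above 0 (median 0.17). Within kit version 3, where 3.46% of all genes were called, 3 rose, Eef2 (0.73), Nap1l1 (0.84) and Btf3 (0.70), with 16 of 16 above 0 (median 0.46), and within kit version 3.1, 0 were called, 0 had an unadjusted p under 0.05, 3 were above 0 and the median was -0.13. From eOB to mOB 9 rose and 0 fell (17.7% and 18.1% of all genes), among them Eef2 by 0.80, Eef1b2 by 0.72 and Eef1a1 by 0.55, elongation factors, and Tpt1 by 0.34. Of the 4 ribosomal proteins outside the rule, Rpl36al (0.69), Rack1 (0.53) and Fau (0.19) rose from eOB to mOB, and none was called for genotype.

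Ribosome biogenesis genes serve the making of ribosomes. Of 24 such genes 0 rose and 1 fell from eOB to mOB (Wdr12, -0.42; 17.7% of all genes rose and 18.1% fell), 2 had an unadjusted p under 0.05, with a median of 0.00. In Het against WT 0 were called by edgeR (0.518% of all genes), 4 had an unadjusted p under 0.05 (11%), 21 were above 0 and the median was 0.20. Their medians were 0.17 in kit version 3 and 0.23 in kit version 3.1. Mitochondrial ribosomal proteins, which serve translation inside the mitochondrion, had 77 of 78 tested. Of them 14 rose and 5 fell from eOB to mOB (17.7% and 18.1% of all genes; median 0.06), and 0 were called by edgeR in Het against WT (0.518% of all genes; 4 at an unadjusted p under 0.05, against 11%; 54 above 0, median 0.11).

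In the mTOR list 18 genes were tested for genotype in mOBs and 1 was called (0.518% of all genes), Eif4ebp1, the inhibitor of cap-dependent translation that mTORC1 switches off and that ATF4 is known to induce. It had 144 and 150 CPM in S1 and S2 and 492 and 468 CPM in S3 and S4, and 63.0 and 68.4 CPM in S5 and S6 against 98.5 and 207 CPM in S7 and S8. Het was above WT in both kit versions without overlap, by 1.44 ± 0.20 over all libraries (log2, SE; edgeR adjusted p = 0.00683). From eOB to mOB 5 of 19 rose (17.7% of all genes), Eif4ebp1 by 1.41, Rps6kb1, the S6 kinase gene, by 0.91, Larp1b by 0.71, Larp1 by 0.65 and Akt1s1 by 0.56, and 1 fell (18.1% of all genes), Deptor (-1.09).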

How the data were processed

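Single-cell 3′ libraries of 4 WT and 4 Het samples were mapped and counted by the authors with Cell Ranger (5.0.0 for kit version 3, 6.0.1 for kit version 3.1) on mm10, per the submitters' processing notes, and the deposited values are raw UMI counts per gene and barcode. Groups were taken from the sample labels. Barcodes with at least 500 genes and under 10% mitochondrial UMIs were kept. UMIs were summed per library and cell class, leaving out sums of under 10 cells, and tested in edgeR 4.0.16 (R 4.3.3; filterByExpr, TMM, quasi-likelihood test, Benjamini-Hochberg adjustment over all genes, threshold 0.05). DESeq2 1.42.0 was an alternative. The scripts were tested on counts simulated over all genes, with log2 changes of 0.5 or 1. Changes of 0.5 were recovered for 4.08% of such genes for Het against WT in mOBs and 2.11% within kit version 3. They were recovered for 0% for the kit difference, 1.06% for OBs against other cells and 28% from eOB to mOB. Those of 1 were recovered for 68.1%, 40%, 7.22%, 56% and 80%, in the same order. For the kit difference 8 of 15 calls were false. Few calls thus do not show that changes are absent. Simulated doublets were marked and left out only as an alternative. Library totals lay between 30480239 and 85162035 UMIs. Sums of mOBs held between 664702 and 4805858 UMIs and sums of eOBs between 204130 and 1296848 UMIs, so that rare members have wide counting error. Libraries pool animals, and p-values measure the spread between libraries.

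Named members were the 3 highest and 3 lowest of at least 20 mean CPM in mOBs (Het against WT, mOB against eOB), every member called in a small set, and a fixed set of paralogs and well-known members. Those outside it (Rpl13, Rpl23a, Rpl35, Rpl35a, Rpl36, Rps3, Rps9, Rps18, Rps21 and Rps25) were chosen after their values were seen. The members and lists were chosen with earlier results of these data known. Some members are not reported here by name. Alternatives changed normalization, the filter on low counts, cell selection, depth and libraries.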

Additional observations from a re-analysis of the deposited data

Results flagged for a closer look

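The summed share of the 83 genes moved in opposite directions with genotype in the kit versions, without overlap of the libraries, in 2 of the OB stages. For mOBs of kit version 3, Het minus WT was 5.29 percentage points of all UMIs, against -0.747 points with version 3.1. In eOBs it was 1.75 points (1.03 to 2.46 with 1 library left out) and -1.71 points (-2.64 to -0.786). These eOB sums held 22 to 81 cells per library in kit version 3 and 27 to 95 in kit version 3.1. Markers differed between genotypes in the same eOBs without overlap, with OB markers in kit version 3 at 29064 to 44018 CPM in WT and 13656 to 28800 CPM in Het, and chondrocyte markers in kit version 3.1 at 21869 to 31862 and 12516 to 12832 CPM. Their part in these shares, and the differences between kit versions, were not tested.

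In all other cells the genotype change of 3 members differed between kit versions in the edgeR test of the difference (kit version 3 minus 3.1, log2), namely Rpl27 (-0.88), Rpl39l (1.33) and Rpl3l (-3.57). In kit version 3 Rpl3l had only 2 and 9 UMIs in the Het libraries. Markers of striated muscle were not examined, and the part of cell makeup in its call was not tested. Rpl27 was high in S1 alone in chondrocyte-like cells of that kit version (747 CPM, against 490, 478 and 480 CPM in S2 to S4). The change from eOB to mOB was smaller in kit version 3.1 for Rpl35 (-0.56), Rps21 (-0.55) and Rpl41 (-0.59), by the edgeR test of the difference.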

How the results depend on the processing

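Among the main counts, medians and shares, 747 values under another setting kept direction and size, 102 moved and 3 changed sign. Where a value moved, the cause was not tested. The median change from eOB to mOB on a scale of normalized counts stayed above 0 in the alternatives run, with 27 members called after thinning to 2000 UMIs and a median of 0.43 under 5% mitochondrial UMIs. For Het against WT in mOBs the median was -0.025 after thinning, 0.19 without kit version in the model, 0.29 in kit version 3 alone (4 called) and -0.13 in kit version 3.1 alone. S8 had the fewest mOBs (42 cells). Dixon's test over the 4 libraries of a genotype could hardly have found an outlying library, since these fall into kit versions.

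Counts of members called moved as follows. Within kit version 3 in mOBs (2) they were 1 with DESeq2 size factors, 5 with DESeq2, 12 with no filter, and 0 under 5% mitochondrial UMIs, after thinning or with other Col1a1 limits; the median was 0.23 with a looser OB selection. Within kit version 3.1 in mOBs the count was 1 with no filter, and the median was -0.036 under 5% mitochondrial UMIs, -0.33 after thinning and -0.042 with other Col1a1 limits. The kit difference of the genotype change gave 2 (DESeq2) and 9 (no filter) in mOBs, 1 in dOBs (no filter) and 1 in other cells (thinned). Het against WT gave 1 (DESeq2) and 2 (kit version 3 alone) in other cells, 2 (no filter) and 2 (thinned) in haematopoietic-like cells, and 4 (DESeq2) and 7 (no filter) by the second rule.

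From eOB to dOB (20) the counts were 4 with DESeq2 size factors, 9 with DESeq2, 12 with TMM computed without the members, 7 and 3 with looser and stricter OB selection, 5 thinned, 13 without doublets and 13 with other Col1a1 limits. From dOB to mOB (19) they were 34 with DESeq2, 3 thinned and 29 with other limits. OBs against other cells (3) gave 9 with DESeq2, 5 with TMM without the members, 5 without collagen genes, 5 with stricter selection and 6 without doublets. From eOB to mOB, kit version 3 (73) gave 25 with stricter selection and 45 thinned, and kit version 3.1 (30) gave 19 with DESeq2 size factors, 49 with no filter, 15 with stricter selection, 7 thinned and 18 without doublets. Their difference (3) gave 19 with DESeq2, 38 with looser selection, and 0 with stricter selection or other limits.

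The Het minus WT share was 3.77 points in eOBs of kit version 3 under 5% mitochondrial UMIs and 4.34 in mOBs of kit version 3 without collagen UMIs. It was -1.94 (mean of cells) and -1.93 (thinned) in mOBs of kit version 3.1, and 4.83 and 5.03 in other cells of kit version 3. With 1 library left out the share ranged from -0.35 to 3.03 in dOBs of kit version 3, from 4.14 to 6.44 in mOBs and from 0.378 to 3.15 in other cells of kit version 3, and from -2.64 to -0.786 in eOBs of kit version 3.1. The median within kit version 3.1 in mOBs ranged from -0.26 (without S8) to -0.044 (without S7). Counts of called members with 1 library left out ranged from 0 to 9 in mOBs of kit version 3 and from 2 to 23 in other cells of kit version 3. They ranged from 0 to 5 (mOBs) and 1 to 6 (other cells) for the kit difference of the genotype change, from 0 to 2 in haematopoietic-like cells and from 1 to 4 for OBs against other cells. By stage they ranged from 3 to 21 (eOB to dOB), 10 to 44 (dOB to mOB), 11 to 28 (kit version 3.1) and 0 to 10 (difference between kit versions).

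Of single members, Rpl7l1 from eOB to mOB changed sign to -0.023 with DESeq2 size factors, -0.022 with looser selection, -0.025 without doublets and -0.059 under 5% mitochondrial UMIs. With 1 library left out it ranged from -0.022 (without S8) to 0.079, and was also below 0 without S5 and S7. For Het against WT in mOBs, Rpl38 was 0.033 and Rps29 0.15 in kit version 3 alone, Rps29 was 0.055 without kit version in the model, and Rpl4 was -0.058 and Rpl13a -0.17 in kit version 3.1 alone.

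Library numbers in the labels allow a replicate block across genotypes, but same-numbered libraries did not deviate together (correlations in mOBs -0.034 and -0.014). With the replicate block 0 members were called for Het against WT in mOBs, dOBs, eOBs, other cells and chondrocyte-like cells, and the mOB median was 0.09.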
